A study of Mus musculus with 7 samples.

Results

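The genes described are the 10 that hold the G1 gate of the β-cell cycle: the D cyclins Ccnd1, Ccnd2 and Ccnd3, their kinases Cdk4 and Cdk6, and the CDK inhibitors Cdkn1a, Cdkn1b, Cdkn2a, Cdkn2b and Cdkn2c. They were taken by symbol from a table of 35013 genes, and all 10 had a row there. Poly-A RNA of sorted β-cells was sequenced from 7 mice, 1 library per mouse, in 3 groups. KO_db/db mice (2 libraries) were homozygous for a floxed Aldh1a3 allele (fl/fl) and for Lepr db (db/db), with RIP-Cre Herr and tdT fl/+. The db/db controls (2 libraries) were also Lepr db/db with RIP-Cre Herr and tdT fl/+, but had 1 floxed and 1 intact Aldh1a3 allele (fl/+), and the lean db/+ controls (3 libraries) shared that Aldh1a3 genotype, Cre and reporter and were Lepr db/+. All groups therefore carried the Cre transgene, the tdTomato reporter and at least 1 floxed Aldh1a3 allele, so that no group had 2 intact Aldh1a3 alleles after recombination. Cre was driven by a rat insulin promoter. Lepr db/db mice lack the signalling form of the leptin receptor and become obese and diabetic. The study's methods give, for its experiments in general, a range of adult ages and mice of both sexes, fasted before islets were isolated. The age and sex of each of these 7 mice and the gate of the sort for these libraries are not given in the sources used here.

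D cyclins bind Cdk4 or Cdk6, and the active pair phosphorylates the retinoblastoma protein so that E2F factors are released and S phase can begin. Separate families of inhibitors oppose this step. INK4 proteins (Cdkn2a, Cdkn2b, Cdkn2c) bind Cdk4 and Cdk6 alone, whereas CIP/KIP proteins (Cdkn1a, Cdkn1b) bind cyclin and CDK pairs and act most strongly on Cdk2. Adult rodent β-cells divide rarely and depend on Ccnd2 and Cdk4 for their postnatal expansion, and accumulation of p16, a product of Cdkn2a, is a known mark of ageing in these cells.

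The libraries held between 27496645 and 35852785 estimated counts each, and the 10 genes took 22675 to 36292 of them. Levels are given as CPM, counts relative to the library total after TMM scaling (trimmed mean of M values, which matches the bulk of genes between libraries), or as CPM per kb of merged exons where genes are compared with each other. The targeted gene Aldh1a3 stood at 4.97 and 7.89 CPM in KO_db/db, at 98.4 and 194 CPM in db/db, and at 0.205, 0.0729 and 0.589 CPM in db/+. Markers of β-cells took 34.3 to 38.7% of counts in db/+, 24.8 to 27% in db/db and 25.9 to 26.4% in KO_db/db. They thus moved with the Lepr genotype, as several members did after TMM scaling. The marker shares are of the library total, without that scaling. Acinar markers took 12.4% and 1.34% of counts in the KO_db/db libraries of mouse 1 and mouse 2, 0.0412% and 0.0233% in db/db, and 0.000843 to 0.0189% in db/+, where 7 of the 20 acinar markers were at 0 in 1 library. Alpha-cell markers took 0.35 and 0.388% in db/db and 0.105 to 0.174% elsewhere. Ductal markers took 0.0183 to 0.0206% in db/+, 0.0355 to 0.054% in db/db and 0.0286 to 0.0416% in KO_db/db, and delta-cell markers 0.0333 to 0.203%, 0.0108 to 0.0203% and 0.0578 to 0.0597%. The part of these marker levels in the differences of the members was not tested. Macrophage and endothelial markers reached at most 0.00931% and 0.00467%. The db/+ library of mouse 3 held 2911 counts over 4 Y-linked genes and the others 20 to 79. In bulk RNA, fewer cells that express a gene and less RNA per cell cannot be told apart.

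Per kb of exon, Ccnd2 was the highest of the 10 genes in all 3 groups, at 86.3 ± 6.0 CPM per kb in db/+ (SD, n = 3), 40.7 ± 2.21 in db/db (SD, n = 2) and 70.3 ± 10.8 in KO_db/db (SD, n = 2). In db/+ the order went on with Cdk4 (27.2 ± 1.01 CPM per kb), Ccnd1 (18.3 ± 4.76), Cdkn1b (14.1 ± 1.61), Cdkn1a (5.67 ± 0.984), Cdkn2b (4.7 ± 0.902), Cdkn2c (3.87 ± 0.465), Ccnd3 (3.07 ± 0.41), Cdkn2a (0.535 ± 0.275) and Cdk6 (0.0507 ± 0.0243). Ccnd1 and Cdkn1b overlapped in range there, as did each neighbouring pair from Cdkn1a down to Ccnd3. In db/db, Cdkn1a (22.3 ± 3.51 CPM per kb) was next after Ccnd2, with Cdk4 (18.9 ± 3.71) overlapping it in range and Ccnd1 (13.6 ± 0.224) and Cdkn1b (7.93 ± 0.25) below. In KO_db/db, Ccnd1 (22.2 ± 3.39 CPM per kb) came after Ccnd2, followed by Cdk4 (18.1 ± 1.94) and Cdkn1a (18.0 ± 7.53), whose ranges overlapped. Cdkn2a and Cdk6 were the lowest of the 10 in every group. The length used is that of all annotated exons merged, not of the transcripts expressed, and the order depends on it. In CPM without length, Ccnd3 (26.9 in db/+) stood above Cdkn1a (20.1), Cdkn2c (10.4) and Cdkn2b (6.53) there.

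**Figure D1:**
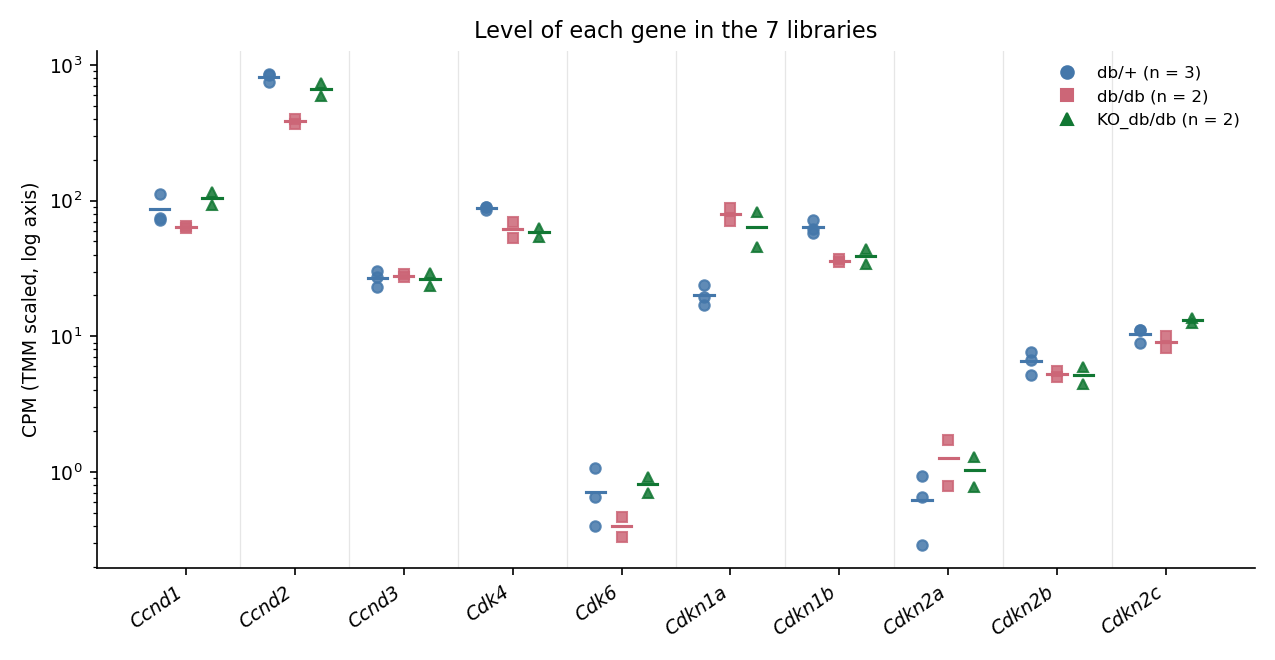
Level of each of the 10 genes in the 7 libraries, in CPM on a log axis; each symbol is 1 library and each bar a group mean, with circles for db/+, squares for db/db and triangles for KO_db/db. Cdkn1a lies between 17.0 and 23.9 CPM in db/+ and between 45.1 and 87.9 CPM in the other 4 libraries, while Ccnd2 is lowest in the 2 db/db libraries.

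Cdkn1a and Cdkn1b, the CIP/KIP inhibitors, showed opposite differences between the diabetic genotypes and db/+. Cdkn1a encodes p21, an inhibitor best known as a target of p53 (ENSMUSG00000023067.14, GRCm38 chromosome 17, 29090976 to 29100727, plus strand). Its level was 19.6, 23.9 and 17.0 CPM in db/+, 70.3 and 87.9 CPM in db/db, and 82.9 and 45.1 CPM in KO_db/db. Each of the 4 Lepr db/db libraries was above each db/+ library, and the db/db range lay within that of KO_db/db except for its upper end. Compared to db/+, Cdkn1a rose by 1.96 (log2 scale) in db/db (SE 0.17, 3.9-fold, adjusted p = 0.000769 by edgeR's quasi-likelihood test) and by 1.67 in KO_db/db (SE 0.26, 3.19-fold, adjusted p = 0.00446, same test). Both comparisons share the db/+ libraries. Between KO_db/db and db/db the log2 difference was -0.31 (SE 0.31, 95% interval -1.09 to 0.47, adjusted p = 0.59). Within KO_db/db, mouse 1, with 12.4% acinar counts, had the higher Cdkn1a level, and the part of acinar RNA in that level was not tested. Without that library the difference of KO_db/db from db/+ was 1.17 (SE 0.19, adjusted p = 0.0126), and the call in that comparison held in each of 14 alternative settings, with adjusted p from 2.93e-09 to 0.0327.

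The sequence before the upstream start of Cdkn1a is shown because it is the only one of 12 promoters found for these genes that holds a pair of p53 core letters, CATGNNNNNNCATG. Sequences are 250 bases ending at a start site, from RefSeq on GRCm38.p6. They were found for 8 of the 10 genes and for neither Ccnd1 nor Ccnd2. Of all 32851 promoters of that length in the table, 161 (0.49%) hold these letters on either strand. A match of letters is no evidence of binding. The capitals mark the match, on chr17:29090729-29090978, plus strand:
Cdkn1a upstream start: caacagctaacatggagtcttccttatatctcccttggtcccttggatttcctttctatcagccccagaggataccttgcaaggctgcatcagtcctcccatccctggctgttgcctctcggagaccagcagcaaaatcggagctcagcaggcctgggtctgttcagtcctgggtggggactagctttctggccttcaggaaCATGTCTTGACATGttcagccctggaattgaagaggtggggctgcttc

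Cdkn1b encodes p27, which keeps resting cells out of the cycle (ENSMUSG00000003031.14, chromosome 6, 134920401 to 134925513, plus strand). It stood at 61.8, 72.2 and 58.1 CPM in db/+, 36.9 and 35.3 CPM in db/db, and 34.1 and 43.8 CPM in KO_db/db. All 4 Lepr db/db libraries were below all 3 db/+ libraries, and the 2 Lepr db/db genotypes overlapped. The log2 difference of Cdkn1b from db/+ was -0.84 in db/db (SE 0.13, adjusted p = 0.00344 by edgeR) and -0.71 in KO_db/db (SE 0.15, adjusted p = 0.0112). KO_db/db differed from db/db by 0.11 (SE 0.17, 95% interval -0.32 to 0.53, adjusted p = 0.739). The call against db/+ was lost in KO_db/db without mouse 1 (adjusted p = 0.0546). Its 250 bases before the start (chr6:134920151-134920400, plus strand) are shown for comparison with those of Cdkn1a, with the 2 CCAAT letters and the 1 GGGCGG in capitals, which 33.8% and 32.7% of all promoters hold on either strand:
Cdkn1b: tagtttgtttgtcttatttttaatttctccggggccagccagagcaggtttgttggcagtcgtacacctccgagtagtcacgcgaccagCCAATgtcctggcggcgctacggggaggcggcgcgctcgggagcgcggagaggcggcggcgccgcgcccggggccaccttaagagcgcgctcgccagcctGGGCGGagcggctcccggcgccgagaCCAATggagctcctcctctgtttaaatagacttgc

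The balance of both inhibitors can be read within each library, where no scaling enters. A ratio or a share does not show which of the genes changed. The ratio of Cdkn1a to Cdkn1b per kb was 0.405, 0.424 and 0.374 in db/+, 2.44 and 3.19 in db/db, and 3.11 and 1.32 in KO_db/db. Cdkn1b was thus the more abundant inhibitor in every db/+ library and Cdkn1a in every Lepr db/db library. As a share of the 5 inhibitors' summed level per kb, Cdkn1a took 20.0, 21.1 and 17.6% in db/+, 54.3 and 61.0% in db/db, and 59.3 and 38.7% in KO_db/db. Cdkn1b took 49.3, 49.9 and 46.9% in db/+, 22.3 and 19.1% in db/db, and 19.1 and 29.3% in KO_db/db. The Cdkn1a share was higher than in db/+ by 38.08 percentage points in db/db and by 29.44 in KO_db/db, both with p = 0.2 by a two-sided exact permutation test over libraries, the smallest value that 2 against 3 libraries allow. With 2 against 2 libraries the smallest is 0.33. Over all 7 libraries the log2 CPM of both genes had a Pearson r of -0.935, given as a description only, since libraries of a group share their genotype.

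**Figure D2:**
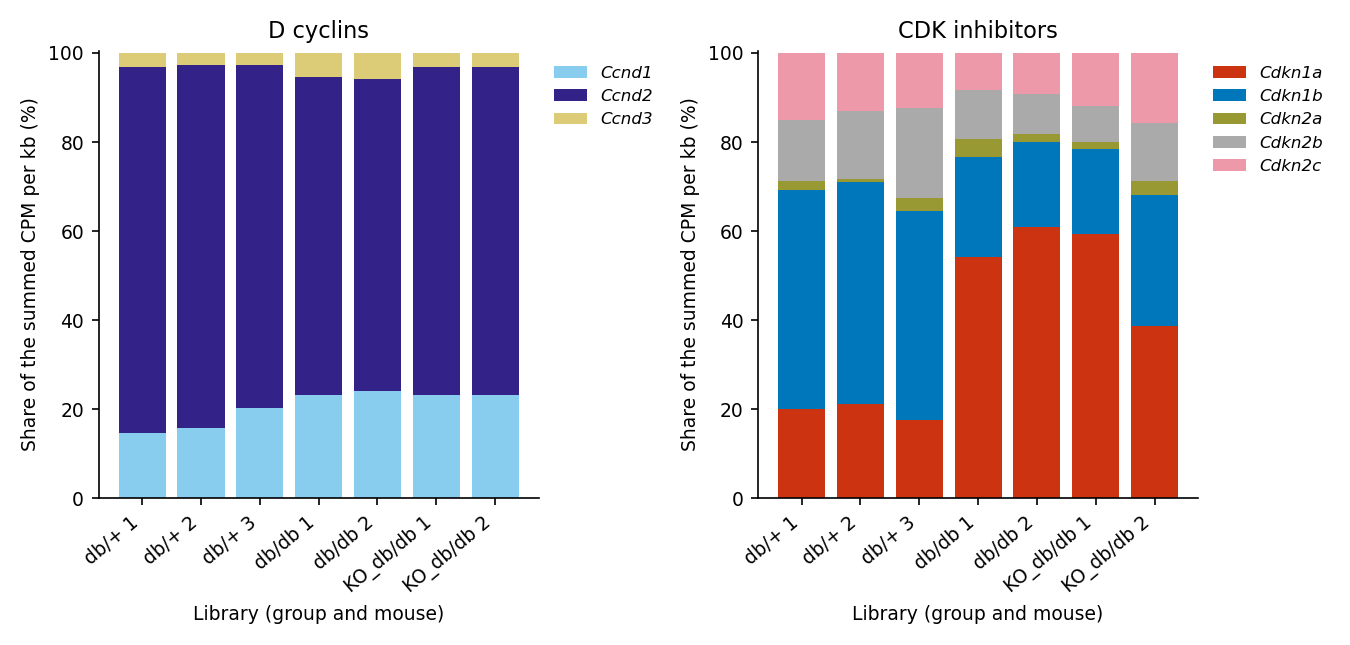
Share of each D cyclin (left) and of each CDK inhibitor (right) in the summed CPM per kb of its class, in percent, with 1 bar per library. Cdkn1a takes 17.6 to 21.1% of the inhibitors in db/+ and 38.7 to 61.0% in the other libraries, and Ccnd2 takes 70.1 to 82.2% of the D cyclins.

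Ccnd2, the D cyclin on which postnatal β-cell growth depends, was lower in db/db than in db/+ (ENSMUSG00000000184.12, chromosome 6, 127125162 to 127152193, minus strand). It was measured at 837, 747 and 851 CPM in db/+, 397 and 368 CPM in db/db, and 733 and 590 CPM in KO_db/db. Both db/db libraries were below the other 5, and both KO_db/db libraries were below all db/+ libraries. Compared to db/+, the log2 difference of Ccnd2 in db/db was -1.1 (SE 0.13, 2.14-fold, adjusted p = 0.00164 by edgeR), a call that held in each of 14 alternative settings. In KO_db/db the difference from db/+ was -0.29 (SE 0.17, 95% interval -0.68 to 0.11, adjusted p = 0.208). Set against db/db, the KO_db/db libraries differed by 0.79 (SE 0.2, 95% interval 0.29 to 1.28), which missed the threshold after adjustment (adjusted p = 0.136 by edgeR). KO_db/db mouse 1, with the most acinar counts, had the higher Ccnd2 and Ccnd1 level of both mice, and without it the log2 differences from db/db were 0.62 for Ccnd2 (SE 0.24) and 0.55 for Ccnd1 (SE 0.22). The part of acinar RNA in these levels was not tested.

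Ccnd1, the D cyclin that growth factors induce (ENSMUSG00000070348.5, chromosome 7, 144929931 to 144939925, minus strand), had 74.4, 72.2 and 112 CPM in db/+, 64.6 and 63.1 CPM in db/db, and 116 and 93.3 CPM in KO_db/db. The db/db libraries were the lowest, and the third db/+ library lay within the KO_db/db range. In KO_db/db the log2 difference from db/db was 0.71 (SE 0.16, 95% interval 0.32 to 1.1, adjusted p = 0.116 by edgeR). Against db/+ the log2 difference was -0.45 in db/db (SE 0.21, adjusted p = 0.131) and 0.28 in KO_db/db (SE 0.21, adjusted p = 0.32). Without the db/+ library of mouse 3, the one with Y-linked counts, Ccnd1 was called higher in KO_db/db than in db/+ (0.52, SE 0.13, adjusted p = 0.0283). Of the 31-base words of its transcripts, 22.3% also occur in transcripts of the overlapping gene LTO1, so that its estimate could take or lose reads there.

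Ccnd3 showed no difference that passed the test, with 30.3, 23.2 and 27.2 CPM in db/+, 27.3 and 28.6 CPM in db/db, and 29.1 and 23.5 CPM in KO_db/db. All 3 ranges overlapped, and the log2 differences were 0.0425 in db/db against db/+ (SE 0.14, 95% interval -0.3 to 0.39), -0.0283 in KO_db/db against db/+ (SE 0.15, -0.39 to 0.34) and -0.0912 in KO_db/db against db/db (SE 0.17, -0.51 to 0.33). Per kb, Ccnd2 took 82.2, 81.5 and 77.1% of the D cyclins in db/+, 71.5 and 70.1% in db/db, and 73.6% in both KO_db/db libraries. Ccnd3 took 5.26 and 5.84% in db/db and 2.64 to 3.19% in the other 5 libraries, which did not overlap (exact permutation p = 0.2 against db/+ and 0.33 against KO_db/db, the smallest that each design allows). The ratio of Ccnd2 to Ccnd1 per kb was 5.63, 5.18 and 3.8 in db/+, 3.08 and 2.92 in db/db, and 3.17 in both KO_db/db libraries. In KO_db/db the levels of Ccnd1 and Ccnd2 both stood above db/db while their ratio stayed near that of db/db.

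Cdk4 is the D cyclin kinase that β-cells require for growth (ENSMUSG00000006728.12, chromosome 10, 127063534 to 127067920, plus strand). It had 90.2, 90.4 and 84.6 CPM in db/+, 52.9 and 69.9 CPM in db/db, and 54.3 and 63.2 CPM in KO_db/db. All Lepr db/db libraries were below all db/+ libraries, and the KO_db/db range lay within that of db/db. Cdk4 was lower than in db/+, with log2 differences of -0.54 in db/db (SE 0.14, adjusted p = 0.0256 by edgeR) and -0.58 in KO_db/db (SE 0.0998, adjusted p = 0.00589). The db/db call was lost without db/db mouse 1 (log2 difference -0.35, adjusted p = 0.0612), without db/+ mouse 1 (-0.52, adjusted p = 0.0788) and without db/+ mouse 2 (-0.52, adjusted p = 0.0765). KO_db/db and db/db differed by -0.0683 (SE 0.19, 95% interval -0.54 to 0.4). Among its 31-base words, 19.5% also occur in other genes, the neighbour Tspan31 first among them. This share was 9.78% for Cdkn1a, 7.95% for Ccnd3, 6.95% for Ccnd2 and 5.19% for Cdk6, and at most 0.0874% for the other inhibitors.

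The bases before Cdk4 are shown for their repeated E box, CACGTG, the letters that Myc and related factors bind. As for Cdkn1a, a match of letters is no evidence of binding. These bases hold CACGTG 4 times, which 7 of 32851 promoters (0.0213%) equal or exceed, while 6.02% hold it at least once. These letters and the GGGCGG box, here on the other strand, are in capitals, on chr10:127063285-127063534, plus strand:
Cdk4: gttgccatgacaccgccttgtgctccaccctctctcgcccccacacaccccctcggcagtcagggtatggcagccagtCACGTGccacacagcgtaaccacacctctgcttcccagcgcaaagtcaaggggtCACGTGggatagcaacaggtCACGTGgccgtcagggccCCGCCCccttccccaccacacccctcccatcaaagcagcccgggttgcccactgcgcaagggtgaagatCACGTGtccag

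Cdk6, the other D cyclin kinase, was close to the detection limit, with 11 to 38 counts per library. It stood at 0.655, 0.401 and 1.07 CPM in db/+, 0.47 and 0.334 CPM in db/db, and 0.698 and 0.922 CPM in KO_db/db. Both KO_db/db libraries were above both db/db libraries, and db/+ overlapped each of them. The log2 difference between KO_db/db and db/db was 1.01 (SE 0.58, 95% interval -0.46 to 2.48, adjusted p = 0.369 by edgeR). Cdk4 made up 99.7 to 99.9% of the summed Cdk4 and Cdk6 level per kb in every library. Relative to Cdkn1a, Cdk4 stood at 5.04, 4.14 and 5.45 per kb in db/+, 0.824 and 0.87 in db/db, and 0.715 and 1.53 in KO_db/db, without overlap between db/+ and the rest. The ratio of Ccnd2 to Cdkn1a per kb was 16.2, 11.8 and 19.0 in db/+, 2.14 and 1.58 in db/db, and 3.34 and 4.94 in KO_db/db, where no group overlapped another.

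None of the INK4 inhibitors passed the test in any comparison. Cdkn2a yields p16 and p19ARF from separate first exons, and the gene-level count holds both (chromosome 4, 89274471 to 89294653, minus strand). It had 8 to 59 counts per library, or 0.655, 0.292 and 0.935 CPM in db/+, 1.73 and 0.788 CPM in db/db, and 0.78 and 1.29 CPM in KO_db/db. All groups overlapped, and the log2 difference between db/db and db/+ was 0.98 (SE 0.64, 95% interval -0.53 to 2.5, adjusted p = 0.265 by edgeR). Cdkn2b, which encodes p15 and lies 11645 bases from Cdkn2a, had 5.2, 6.71 and 7.69 CPM in db/+, 5.58 and 5.04 CPM in db/db, and 4.43 and 5.95 CPM in KO_db/db. Its log2 differences from db/+ were -0.31 in db/db (SE 0.22) and -0.32 in KO_db/db (SE 0.24), with overlapping ranges.

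Cdkn2c, which encodes p18 and restrains endocrine cell growth, was measured at 11.1, 11.1 and 8.97 CPM in db/+, 8.25 and 10.03 CPM in db/db, and 12.6 and 13.7 CPM in KO_db/db. Both KO_db/db libraries were above the other 5. The log2 difference was 0.52 against db/db (SE 0.19, 95% interval 0.0388 to 1.0, adjusted p = 0.218 by edgeR) and 0.34 against db/+ (SE 0.15, 95% interval -0.0214 to 0.71, adjusted p = 0.12). Together with Ccnd1, Ccnd2 and Cdk6 it was 1 of 4 members whose KO_db/db and db/db libraries did not overlap, all 4 with the KO_db/db libraries higher. Over all 13486 genes tested in that comparison, 57.5% had libraries that did not overlap and 28.4% did so with KO_db/db higher, so that a count of 4 in 10 is read as no result about the members.

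Counted over the members, 4 of 10 were called in db/db against db/+, 1 higher (Cdkn1a) and 3 lower (Ccnd2, Cdk4, Cdkn1b). The background of that comparison was 37.8% of 13406 genes called, 19.9% higher and 18.0% lower, and the share of members was close to it. The members' median log2 difference was -0.38 and that of all genes tested 0.00642. In KO_db/db against db/+, 3 of 10 were called, Cdkn1a higher and Cdk4 and Cdkn1b lower, beside 38.4% of 13228 genes, 20.5% higher and 17.9% lower. There the median was 0.086 over the members and -0.00344 over all genes. In KO_db/db against db/db, 0 of 10 were called by edgeR, beside 43 of 13486 genes or 0.319%, of which 0.126% were higher and 0.193% lower. At an unadjusted p under 0.05 this last comparison held 3 members (Ccnd1, Ccnd2, Cdkn2c) and 2814 genes. DESeq2 called Ccnd1 and Ccnd2 there (adjusted p = 0.00424 and 0.000473) beside 10.2% of genes, edgeR with no filter on low counts called the same pair beside 8.0%, and edgeR with all 7 libraries in 1 fit called Ccnd2 alone (adjusted p = 0.0424) beside 5.93%.

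**Figure D3:**
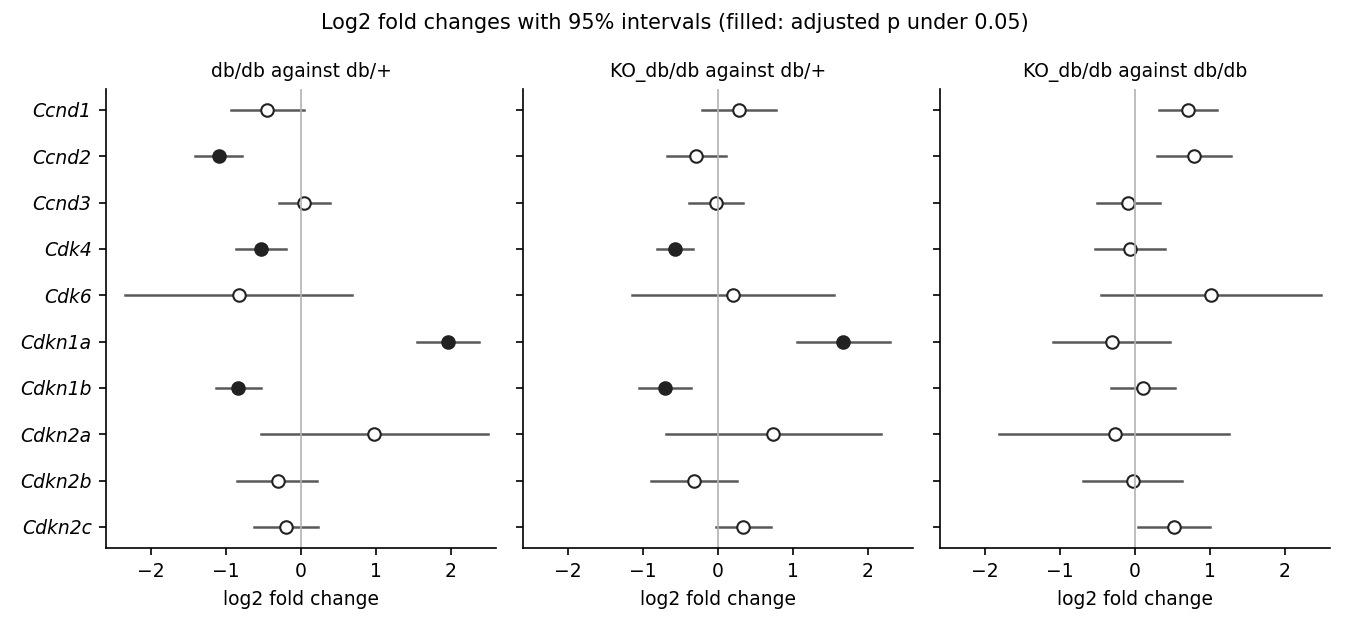
Log2 fold change of each gene in the 3 comparisons, with lines for 95% intervals not adjusted for the number of genes and filled circles for an adjusted p under 0.05 by edgeR. The interval of Cdkn1a lies above 0 and those of Cdk4 and Cdkn1b below 0 in both comparisons with db/+, and no gene is filled in KO_db/db against db/db.

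The falls of Cdk4 and Cdkn1b were relative to the bulk of genes and depended on the scale. TMM factors were 0.869 to 0.875 in db/+, 1.2 and 1.23 in db/db, and 0.886 and 1.15 in KO_db/db. With library totals as the scale, the median log2 difference of all genes shifted by 0.49 in db/db against db/+, 44.5% of genes were called higher and 5.97% lower, and the members called were Ccnd2 (-0.61, adjusted p = 0.00746) lower and Cdkn1a (2.46, adjusted p = 0.000224) and Ccnd3 (0.54, adjusted p = 0.0184) higher. On that scale Cdk4 was at -0.0419 (adjusted p = 0.83) and Cdkn1b at -0.35 (adjusted p = 0.058), both below the median of all genes, and Ccnd3 was near it. In KO_db/db against db/+ the shift was 0.22, 22.5% of genes were called higher and 4.91% lower, and of the members Cdkn1a alone was called (1.83, adjusted p = 0.000142). The rise of Cdkn1a in both Lepr db/db genotypes and the fall of Ccnd2 in db/db were called on either scale.

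**Figure D4:**
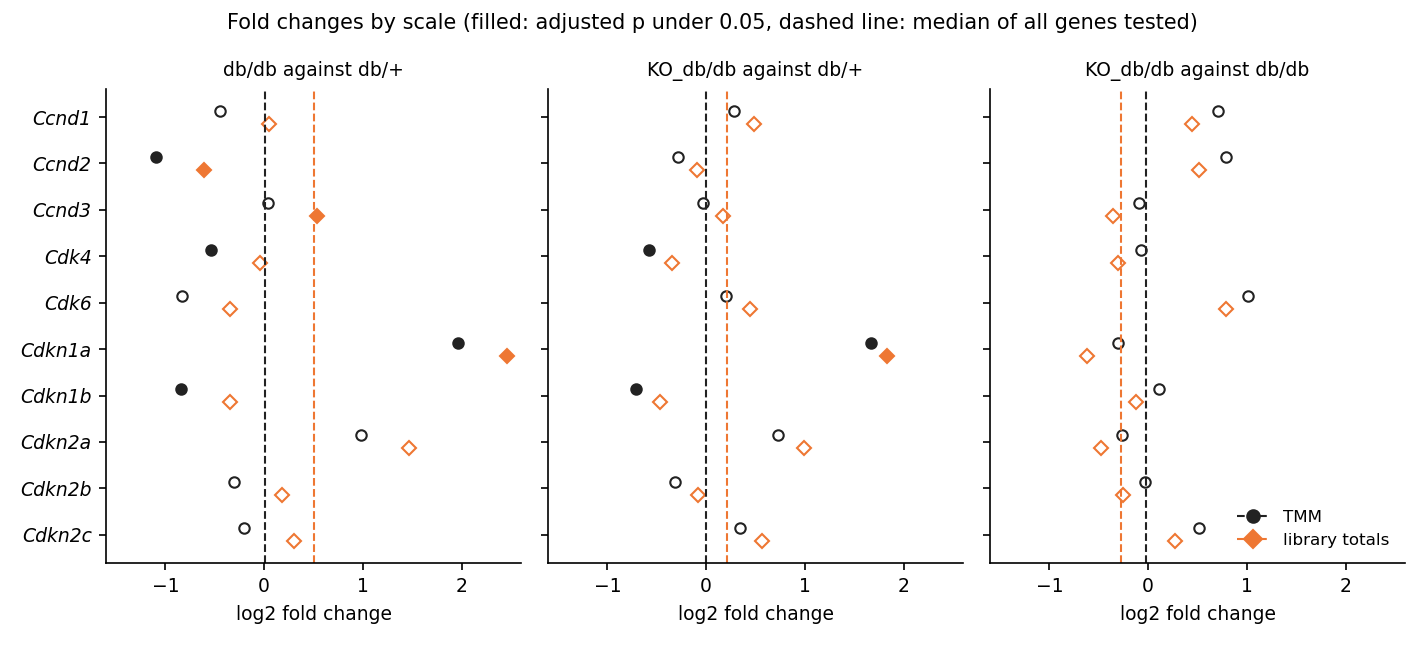
Log2 fold change of each gene with TMM scaling (circles) and with library totals as the scale (diamonds), filled where the adjusted p by edgeR is under 0.05, with dashed lines at the median of all genes tested on each scale. In db/db against db/+ the medians lie at 0.00642 and 0.5, and each gene moves with them.

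Around the members, 117 other genes of the G1 pathway in 11 lists were counted, of which 114 were tested against db/+. In db/db against db/+, 27 were called higher and 22 lower (median log2 difference 0.0534), and in KO_db/db against db/+, 20 higher and 24 lower (median -0.19), shares close to those of all genes. With library totals these counts were 48 and 8, and 22 and 6. Of all genes, 44.5% were called higher and 5.97% lower on that scale in db/db, and 22.5% and 4.91% in KO_db/db. In KO_db/db against db/db, 0 of 113 were called by edgeR, with a median of -0.16. With library totals 2 were called higher there and 11 lower, beside 2.50% and 6.55% of all genes.

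Of the 3 remaining CDK inhibitors, 1 was called lower in db/db and 0 in KO_db/db, each compared to db/+. Cdkn1c, which encodes p57, had a mean of 0.309 CPM in db/db, 3.29 CPM in db/+ and 1.99 CPM in KO_db/db, and fell by 3.37 on the log2 scale in db/db against db/+ (SE 0.62, adjusted p = 0.00724 by edgeR), also with library totals. KO_db/db differed from db/db by 2.65 for Cdkn1c, without overlap of the libraries (SE 0.77, adjusted p = 0.163), and with library totals it was called higher (2.41, adjusted p = 0.0309). The db/db libraries stood at 0.117 and 0.502 CPM for Cdkn1c, where 3 counts equal 0.088 and 0.0717 CPM. Its differences from db/db therefore rest on few counts. Cdkn2d, which encodes p19INK4d, had means of 3.67 CPM in db/db, 7.83 in db/+ and 6.34 in KO_db/db, with a log2 difference of -1.09 in db/db against db/+ (adjusted p = 0.0503). The CDK-activating kinase had 1 of 3 genes lower in each comparison with db/+, the cyclin Ccnh (-0.69 in db/db, adjusted p = 0.00518, and -0.56 in KO_db/db, adjusted p = 0.016), which was not called with library totals (-0.2 and -0.33).

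Of the targets of the D cyclin kinases, the pocket protein gene Rbl1 (p107) was lower in db/db than in db/+ (-1.76, adjusted p = 0.00513), also with library totals. Rb1, the retinoblastoma gene, had means of 28.3 CPM in db/+, 21.9 in db/db and 28.3 in KO_db/db and was not called (-0.38 in db/db against db/+, adjusted p = 0.0713). Of the 10 E2F and DP genes, 4 were called higher and 2 lower in db/db, and 2 higher and 3 lower in KO_db/db, compared to db/+, and with library totals 5 and 0, and 2 and 1. E2f1, which drives S phase genes, was lower in both (-0.68, adjusted p = 0.0162, and -1.06, adjusted p = 0.00442), and with library totals in KO_db/db alone. Tfdp2, an E2F partner, was higher in both (1.06, adjusted p = 0.0022, and 0.57, adjusted p = 0.0165). E2f2 was called in opposite directions, at 9.35 CPM in db/db, 5.59 in db/+ and 3.43 in KO_db/db, with log2 differences from db/+ of 0.73 (adjusted p = 0.0136) and -0.7 (adjusted p = 0.029), of which the fall in KO_db/db was not called with library totals (-0.48, adjusted p = 0.235). KO_db/db against db/db gave -1.45 for E2f2 (SE 0.21, adjusted p = 0.0838), and with library totals it was called lower (-1.7, adjusted p = 0.000995).

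Cyclin E and A and their kinases gave few calls. Ccne1 (0.0361 in db/db and -0.19 in KO_db/db against db/+) and Cdk2 (-0.61 and -0.76) were not called in either comparison. Cdc25a, a phosphatase that activates Cdk2, was higher in db/db (0.82, adjusted p = 0.0158). Ccne2 (-0.98, adjusted p = 0.0441) and Ccna2 (-1.44, adjusted p = 0.0365) were lower in KO_db/db with TMM and were not called with library totals. Of 24 S phase and mitosis genes, 1 was called higher and 4 lower in db/db, and 1 higher and 9 lower in KO_db/db, compared to db/+, and with library totals 2 higher and 3 lower in each. The replication genes Mcm6 (-1.53 in db/db, adjusted p = 0.00299, and -0.72 in KO_db/db, adjusted p = 0.0227) and Pcna (-1.09, adjusted p = 0.00284, and -0.72, adjusted p = 0.00516) were lower in both with TMM, and in db/db alone with library totals. Mki67, the proliferation marker, was the gene called higher, with a mean of 0.862 CPM in db/+, 5.57 in db/db and 4.89 in KO_db/db. Its db/db libraries ranged from 1.99 to 9.15 CPM, and its log2 differences from db/+ were 2.69 (SE 0.61, adjusted p = 0.0151) and 2.51 (SE 0.29, adjusted p = 0.00161). Between KO_db/db and db/db the log2 difference of Mki67 was -0.2 (SE 0.68, adjusted p = 0.884), with overlapping libraries.

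Among regulators of the members, the p53 pathway was counted beside its target Cdkn1a. Trp53 (0.23 in db/db and -0.24 in KO_db/db against db/+, adjusted p = 0.223 and 0.319) and Mdm2, its inhibitor and target (0.14 and -0.0221, adjusted p = 0.386 and 0.896), were not called with TMM. Both were called higher in db/db with library totals (0.72 and 0.63), where the median of all genes was 0.5 and 44.5% were called higher. Of 15 other p53 target genes tested, 6 were called higher and 3 lower in db/db, and 2 higher and 4 lower in KO_db/db, compared to db/+. With library totals these counts were 9 and 1, and 3 and 0. Phlda3, a p53 target that blunts Akt signalling, had a mean of 1.87 CPM in db/+, 19.6 in db/db and 3.08 in KO_db/db (3.37 in db/db against db/+, adjusted p = 0.00096, and 0.73 in KO_db/db against db/+, adjusted p = 0.195). Plk2 was higher in both (3.63, adjusted p = 0.00173, and 2.6, adjusted p = 0.0192), and Aen, a nuclease, in db/db (1.51, adjusted p = 0.0018). Called lower in both were Rrm2b (-1.04, adjusted p = 0.00402, and -0.58, adjusted p = 0.00827), Tigar (-0.97, adjusted p = 0.00648, and -0.87, adjusted p = 0.0122) and Ei24 (-0.67, adjusted p = 0.00618, and -0.54, adjusted p = 0.0126). Ccng1 was lower in KO_db/db (-0.53, adjusted p = 0.0399). Of these lower calls, that of Rrm2b in db/db alone held with library totals. Of 16 such genes tested in KO_db/db against db/db, 0 were called by edgeR and 7 had a log2 difference above 0 (median -0.25). That comparison gave -2.65 for Phlda3 (SE 0.41, adjusted p = 0.0844), -1.04 for Plk2 (SE 0.52, adjusted p = 0.317) and -0.92 for Aen (SE 0.25, adjusted p = 0.148), beside -0.31 for Cdkn1a. With library totals 0 of the 16 were called higher there and 5 lower, beside 2.50% and 6.55% of all genes. Phlda3 (-2.86, adjusted p = 2.12e-12) and Aen (-1.14, adjusted p = 0.00829) were among the 5, while Plk2 (-1.21, adjusted p = 0.0802) and Cdkn1a were not called.

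Of 12 factors and receptors that act above G1, 5 were higher and 3 lower in db/db, and 4 higher and 1 lower in KO_db/db, compared to db/+, and with library totals 8 and 2, and 4 and 1. Klf4, which can activate Cdkn1a, stood at a mean of 0.264 CPM in db/+, 6.77 in db/db and 1.67 in KO_db/db (4.66, adjusted p = 0.000766, and 2.67, adjusted p = 0.0103). Nfatc1, a calcineurin-dependent factor of β-cell growth, was higher in both (1.64, adjusted p = 0.000669, and 1.44, adjusted p = 0.00141). Prlr, the prolactin receptor that drives β-cell expansion in pregnancy, was lower in both (-1.09, adjusted p = 0.00157, and -0.85, adjusted p = 0.00386). These calls for Klf4, Nfatc1 and Prlr also held with library totals. Myc was higher in db/db (2.22, adjusted p = 0.00994), where Cdk4 was lower, and was not called in KO_db/db (1.3, adjusted p = 0.145). With library totals Myc was also called in db/db alone (2.71, adjusted p = 0.00282). A link of Myc to the level of Cdk4 was not tested.

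In β-cells, Polycomb proteins silence the Cdkn2a locus, and menin maintains expression of Cdkn1b and Cdkn2c. Ezh2 (-0.27 and -0.49) and Men1 (0.29 and 0.22) were not called in db/db or KO_db/db against db/+ with TMM. Men1 was called higher in db/db with library totals (0.78, adjusted p = 0.00335), as were 44.5% of all genes. Bmi1 was lower in both (-0.63, adjusted p = 0.00434, and -0.82, adjusted p = 0.00195), with library totals in KO_db/db alone, and Rnf2 was lower in db/db (-0.61, adjusted p = 0.00494) with TMM alone. Kmt2a, the methyltransferase partner of menin, was at a mean of 12.4 CPM in db/+, 52.6 in db/db and 78.5 in KO_db/db, higher in both (2.07, adjusted p = 0.00101, and 2.66, adjusted p = 0.000605). Of 7 SCF genes, which mark p27 and cyclins for breakdown, Fbxw7 was higher in both (1.2, adjusted p = 0.00157, and 1.11, adjusted p = 0.00188), Cul1 in KO_db/db (0.6, adjusted p = 0.00404), and Skp1 lower in both (-0.7, adjusted p = 0.00286, and -0.44, adjusted p = 0.00824) with TMM alone.

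**Figure D5:**
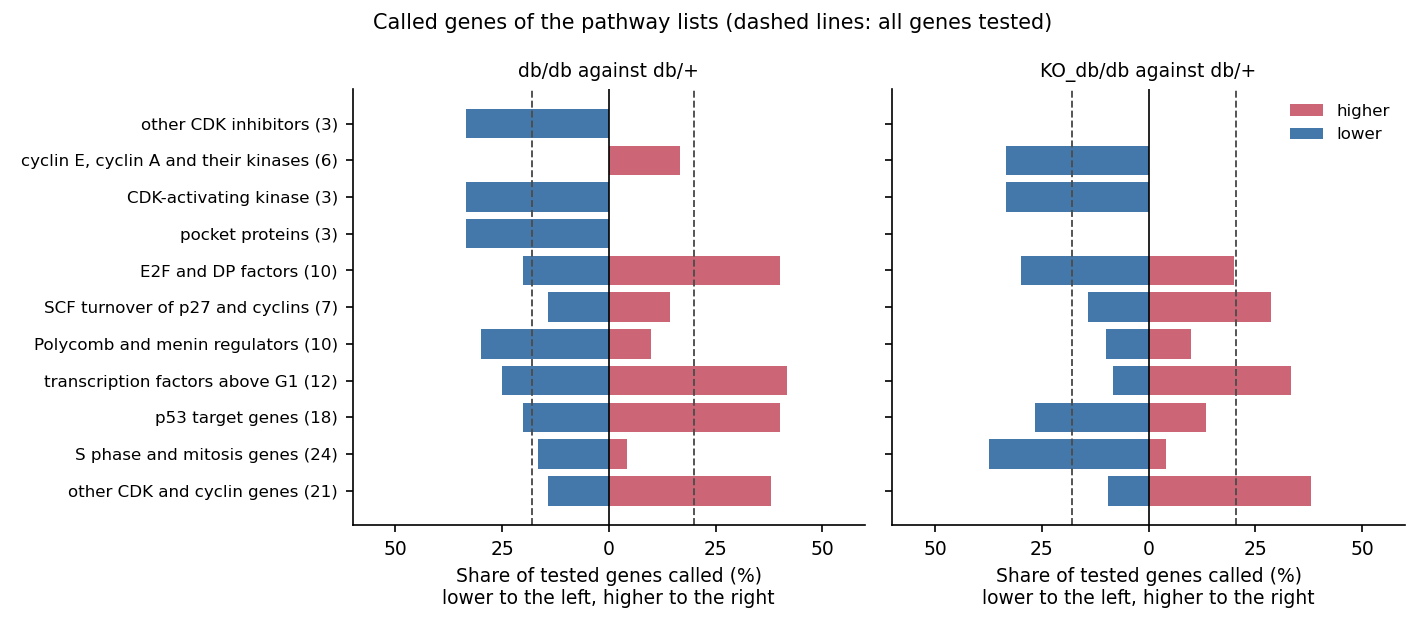
Share of the tested genes of each pathway list that edgeR called higher (right, red) or lower (left, blue) in db/db and in KO_db/db against db/+, in percent, with list sizes in brackets and dashed lines at the shares over all genes tested. Shares of the E2F, p53 target, upstream factor and other CDK and cyclin lists called higher in db/db lie past the dashed line of 19.9%, and the S phase and mitosis genes called higher lie short of it. The E2F, p53 target and upstream factor lists also lie past the line of 18.0% for lower calls in db/db. In KO_db/db the E2F and p53 target lists lie short of the line of 20.5% for higher calls.

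The other CDK and cyclin genes, most of them linked to transcription or neuronal signalling rather than to G1, had 8 of 21 called higher in each comparison with db/+, and 3 lower in db/db and 2 lower in KO_db/db. With library totals 16 were called higher in db/db and 8 in KO_db/db, beside 44.5% and 22.5% of all genes, and 0 lower in either. Cdk18 (1.7, adjusted p = 0.00117, and 0.92, adjusted p = 0.0116), Cdk13 (1.1, adjusted p = 0.0103, and 1.6, adjusted p = 0.00106) and Cdk11b (0.8, adjusted p = 0.0243, and 0.91, adjusted p = 0.00549) were higher in db/db and in KO_db/db, also with library totals.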

How the data were processed

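Poly-A libraries of sorted β-cells were sequenced by the authors as paired-end reads and quantified with kallisto (0.44.0, after bcl2fastq 2.19, per the submitters' processing notes) on GRCm38. The annotation release is not given in the sources used here. The deposited table holds estimated counts per gene, rounded to whole numbers and not normalized, in 7 libraries of 27496645 to 35852785 counts. Groups followed the sample titles. Of 35013 symbols, 34273 matched GENCODE M21, which gave exon lengths.

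Genes kept by filterByExpr (minimum count 10) were tested per pair of groups with edgeR 4.0.16 (R 4.3.3) by TMM and the quasi-likelihood test, with Benjamini-Hochberg adjustment over all genes tested and a threshold of 0.05. Standard errors and 95% intervals come from that fit. The steps were tested on simulated data. Shares within a library were compared by exact permutation. Alternatives were RLE scaling, DESeq2 1.42.0 (the study's tool), no filter, all 7 libraries in 1 fit, the mouse number as a block, omission of acinar, Reg and insulin genes, a threshold of 0.01, and leaving out each library. Named genes were all members and, of each list, up to 3 with the smallest adjusted p and a mean of at least 1 CPM, beside 12 fixed genes. Rrm2b, Tigar, Ei24, Ccng1 and Myc were named beside these after seeing the data. The members and lists were chosen with earlier results of these data known. The mouse is the replicate, and libraries of a group differed beyond counting noise.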

Additional observations from a re-analysis of the deposited data

How the results depend on the processing

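In KO_db/db against db/db the 0 members called became 2 with DESeq2, 2 with no filter and 1 with all 7 libraries in 1 fit. Leaving out each library gave 0. In db/db against db/+ the 4 called became 3 to 4 when libraries were left out, and in KO_db/db against db/+ the 3 became 2 to 4. Scaling by library totals and by upper quartile was added after seeing the data. With library totals the last count was 1, and the direction of Cdkn1b in KO_db/db against db/db (-0.12) reversed, as did those of Ccnd1 (0.0447), Cdkn2b (0.18) and Cdkn2c (0.3) in db/db against db/+ and of Ccnd3 in KO_db/db against db/+ (0.17). Ccnd3 in db/db against db/+ was at -0.0105 with the upper quartile. Deviations of same-numbered libraries from their group means correlated at -0.102 to 0.076. In a group of 2 libraries these deviations mirror each other, so that the check cannot exclude a pairing by mouse number. With the number as a replicate block, 0, 4 and 4 members were called, Ccnd1 (0.51, adjusted p = 0.0388) joining in KO_db/db against db/+. Leaving out each library in turn also changed the sign of uncalled genes, with log2 ranges of -0.25 to 0.0602 (Ccnd3), -0.26 to 0.15 (Cdk4), -0.81 to 0.0715 (Cdkn1a), -0.0782 to 0.28 (Cdkn1b), -0.74 to 0.39 (Cdkn2a) and -0.26 to 0.16 (Cdkn2b) in KO_db/db against db/db, -0.0558 to 0.14 (Ccnd3) in db/db against db/+, and -0.19 to 0.11 (Ccnd3) and -0.0844 to 0.64 (Cdk6) in KO_db/db against db/+. A lone library was assumed to vary like the other group. Of 410 values, 374 kept direction and side of the threshold. The cause was not tested. Cdkn2a and Cdk6 had 8 to 59 counts and the widest intervals of the 10 genes. The part of depth in these was not tested.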

Other observations

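Genes whose log2 CPM followed a member most closely over the 7 libraries were listed among 9608 genes of at least 5 CPM, or 9609 where the member itself was below that level, as a description with no test. Libraries share genotype and scale, and many genes follow a member with a difference between groups. For Cdkn1b, 213 genes had a Pearson r above 0.95, led by Dnajc27 (0.999), Nrep (0.994) and Stx8 (0.991). Ccnd2 had 152, led by Gng4 (0.995), Phka2 (0.994) and Tm9sf2 (0.991), and Cdkn1a had 130, led by Socs7 (0.991), Crebzf (0.99) and Dusp16 (0.99). Cdk4 had 45, led by Tnfrsf9 (0.99), Fancl (0.981) and Commd6 (0.979). Members without a called difference had few: Cdkn2c 4 (Hspa9 0.986, Tapbp 0.969 and Dis3l2 0.966), Ccnd1 4 (Tep1 0.971, Gpr158 0.962 and Araf 0.96), Cdkn2b 2 (Zfp51 0.979, Nosip 0.962 and then Rps12 0.95), Cdkn2a 2 (Brsk1 0.974, Coro2b 0.953 and then Ranbp1 0.946), Cdk6 1 (Fbxw9 0.953, then Rit2 0.939 and Pdia4 0.93) and Ccnd3 0 (Galnt7 0.938, Ecsit 0.914 and Mrpl12 0.9).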
